A study of Mus musculus with 24 samples.

Results

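The Serpinb genes, the clade of serine protease inhibitors that stay inside the cell, were followed in DMBA-induced mammary tumors of BALB/c mice. Members were taken by name, as every non-control probe whose gene name on the array begins with Serpinb and a digit. This gave 31 of 39429 probes, which stand for 27 genes. Of these, 14 genes (16 probes) passed the filter on low signal and were tested among 20936 genes, while 13 genes did not pass and are described by their values only. The clade was chosen on the early and late levels of Serpinb11 in these same tumors, so the early and late values of all members are a description. Counts of members called by onset are printed only beside the share of all genes called, and they support nothing.

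All mice carried the same DMBA treatment and differed in diet. HFD mice ate the high animal fat diet throughout and LFD mice the low-fat diet throughout, whereas HFD-LFD mice were switched from HFD to LFD after peripuberty and LFD-HFD mice from LFD to HFD. Tumors were labelled Early or Late by when they appeared. The 24 tumors comprised 3 HFD Early, 3 HFD-LFD Early, 5 LFD Late, 6 HFD Late, 4 LFD-HFD Late and 3 HFD-LFD Late, each on its own 2-colour array against a pooled mouse cell line RNA. No LFD or LFD-HFD tumor was early. Whether the tumors of a group came from separate mice is not given in the labels, so the errors measure the spread between tumors.

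Serpins trap a protease by offering it a reactive loop as bait, after which the cleaved serpin folds around the enzyme and locks it. Clade B members lack a classical secretion signal and act mainly in the cytoplasm or nucleus, where they guard cells against their own or neighbouring proteases. In the mouse the genes lie in 2 clusters. Members of the chromosome 1 cluster are best known from stratified epithelia and keratinocytes, and several members of the chromosome 13 cluster protect leukocytes from granule proteases. Serpinb5, called maspin, is a marker of mammary myoepithelial cells.

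The probes of 12 genes mapped to chromosome 1 (mm9, between 108778585 and 109504924) and those of 15 genes to chromosome 13 (mm9, between 32934693 and 34009855). Promoter windows were available for 25 of the 27 genes, as 31 windows of the 250 bases before a RefSeq transcript start (GRCm38.p6). The letters TGANTCA, with any base at N, were read on both strands as a loose form of the site for AP-1 factors. The matches printed below have A or T at N, and binding by any factor was not tested. TGANTCA stood in the windows of 7 genes, Serpinb2, Serpinb5, Serpinb7, Serpinb8, Serpinb10, Serpinb11 and Serpinb12, which all lie on chromosome 1. This was 8 of the 31 windows (25.8%), a pair of which overlap at Serpinb2, against 6.75% of 32851 mouse promoters. TATAAA stood in 10 windows (32.3%, against 12.4% of all), among them those of all 4 measured Serpinb3 genes, and GGGCGG in 4 (12.9%, against 32.7%), those of Serpinb5, Serpinb6a, Serpinb6b and Serpinb6c. The p53-family recognition decamer was found in 0 of the 31 windows, against 7.13% of all. The tested chromosome 1 members with the highest early minus late differences were Serpinb11, Serpinb10, Serpinb2 and Serpinb3c. Their windows are shown 5′ to 3′ with that of Serpinb5, with the matches to these motifs in capitals.
Serpinb11 (chr1:107362064-107362313, plus strand): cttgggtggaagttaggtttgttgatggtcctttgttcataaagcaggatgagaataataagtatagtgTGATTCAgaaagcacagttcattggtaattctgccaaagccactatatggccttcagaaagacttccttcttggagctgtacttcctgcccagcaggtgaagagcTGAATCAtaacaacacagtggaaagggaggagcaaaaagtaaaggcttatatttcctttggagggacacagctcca
Serpinb10 (chr1:107528753-107529002, plus strand): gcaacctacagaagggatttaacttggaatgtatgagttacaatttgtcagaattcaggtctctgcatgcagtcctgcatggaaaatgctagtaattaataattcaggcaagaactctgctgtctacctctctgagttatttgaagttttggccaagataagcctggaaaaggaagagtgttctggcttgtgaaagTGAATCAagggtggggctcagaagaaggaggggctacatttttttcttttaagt
Serpinb2 (chr1:107511173-107511422, plus strand): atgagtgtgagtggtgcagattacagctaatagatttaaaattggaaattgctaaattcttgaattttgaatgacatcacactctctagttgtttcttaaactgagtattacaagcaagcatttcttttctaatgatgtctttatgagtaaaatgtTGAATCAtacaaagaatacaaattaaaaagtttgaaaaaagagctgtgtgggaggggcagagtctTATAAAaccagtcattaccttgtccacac
Serpinb3c (chr1:107278372-107278621, minus strand): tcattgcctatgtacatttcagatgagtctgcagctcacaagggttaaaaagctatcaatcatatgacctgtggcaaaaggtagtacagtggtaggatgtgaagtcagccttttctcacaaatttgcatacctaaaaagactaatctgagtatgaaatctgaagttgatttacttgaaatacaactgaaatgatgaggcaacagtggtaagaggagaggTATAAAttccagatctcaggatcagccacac
Serpinb5 (chr1:106860925-106861174, plus strand): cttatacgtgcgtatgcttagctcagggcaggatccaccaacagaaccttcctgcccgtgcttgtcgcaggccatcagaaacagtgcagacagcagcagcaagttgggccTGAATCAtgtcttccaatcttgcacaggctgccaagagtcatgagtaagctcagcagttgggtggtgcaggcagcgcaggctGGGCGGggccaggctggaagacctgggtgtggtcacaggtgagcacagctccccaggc

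Several members are close copies of each other, and the probes show how far the array could separate them. The Serpinb6a, Serpinb6c and Serpinb6e probes shared a run of 18 bases, and the Serpinb6a and Serpinb6c probes a run of 26. Windows of 30 bases are aligned on these runs, with capitals for bases that differ from the upper line.
Serpinb6a: aagtgaccttatccataagtgcaatggcaa
Serpinb6c: aagtgaccttatccataagtgcaatgAcaG
Serpinb6e: aagtgaccttatccataaAtATaatgAcaG
Serpinb3a: ttcttctaatctagcatatatctgtgccct
Serpinb3c: ttcttctaatctagcatGtatctgtgccct
The Serpinb6c window differed from that of Serpinb6a at 2 bases, the Serpinb6e window at 5 and the Serpinb3c window from that of Serpinb3a at 1. The Serpinb9f and Serpinb9g probes shared 41 of their 60 bases. These genes are therefore reported as uncertain among their copies. The Serpinb8 probe held T or G at 50 of its 60 bases (83.3%). Its middle stretch, shown next, is largely a repeat of T and G, and its values may not belong to that transcript alone.
Serpinb8: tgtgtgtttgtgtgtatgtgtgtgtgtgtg

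On each array, 66.1% to 89.2% of probes stood well above background in Cy5. Rows of spots with dimmed Cy5 on slides 6 and 7 were left without values, which removed Serpinb1a, Serpinb8, Serpinb10 and Serpinb11 from 4 late tumors and Serpinb6b from 3. Early tumors lay on slides 2 and 4, and slide 4 also held 1 late tumor. The epithelial keratins Krt8 and Krt14 were well above background in all 24 tumors. Values are log2 ratios of tumor (Cy5) over reference (Cy3), so a higher value means more RNA in the tumor. The labels give this dye order, while the methods of the study state the opposite. The Cy5 channel varied more between arrays (median SD 0.55 against 0.21 log2 units for Cy3), and the median Y chromosome probe was brighter in Cy3 on all 24 arrays, so the order of the labels was kept.

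Serpinb11, an epithelial serpin that in the mouse inhibits trypsin-like proteases, was high in every early tumor. Its log2 ratios were 3.84, 2.65 and 3.83 in the HFD Early tumors and 3.59, 3.42 and 3.50 in the HFD-LFD Early tumors. In late tumors it was -0.57, -1.45, 1.58 and -1.58 in LFD, -1.42, 0.18, 0.97 and 4.05 in HFD, -2.09, -1.84 and -1.78 in LFD-HFD and 1.96, -1.58 and 4.04 in HFD-LFD. The early and late ranges overlapped, since 2 of 14 late tumors, HFD Late tumor 4 and HFD-LFD Late tumor 3, lay above every early tumor. The early mean was 3.47 ± 0.44 (SD, n = 6) and the late mean 0.03 ± 2.16 (SD, n = 14), a difference of 3.44 ± 0.84 (SE). Within the first scan session the difference was 3.22 and within the second 3.99. Fewer cells of a type and less RNA per cell cannot be told apart in these bulk tumors.

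Serpinb10, known as bomapin and named from blood progenitor cells, is another member of the chromosome 1 cluster, with Serpinb7 and Serpinb2 between it and Serpinb11. Its pattern was the third closest to Serpinb11 of 17207 genes. It stood at 1.61, 0.61 and 2.25 in HFD Early and at 1.09, -0.06 and 1.16 in HFD-LFD Early. Late values were -1.35, -1.44, -0.15 and -1.38 in LFD, -1.76, -1.30, -0.76 and 2.91 in HFD, -2.09, -2.33 and -1.89 in LFD-HFD and -1.21, -2.08 and 1.82 in HFD-LFD. The same late pair, HFD Late tumor 4 and HFD-LFD Late tumor 3, was again the highest. Its probe, named Serpinb10-ps on the array, took the symbol Serpinb10 from the match to RefSeq. That probe was not well above background in any of the 3 measured LFD-HFD Late tumors. On the tumor channel alone, HFD Early tumors, with a mean of 10.5 log2 units, were at least 19.5-fold brighter than LFD-HFD Late tumors, with a mean of 6.21. The early mean of 1.11 ± 0.80 (SD, n = 6) exceeded the late mean of -0.93 ± 1.52 (SD, n = 14) by 2.04 ± 0.62 (SE).

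The genes closest to Serpinb11 over its 20 measured tumors were an unnamed transcript, TC1653260 (Pearson r = 0.936), Rasgef1b (r = 0.925), Serpinb10 (r = 0.925), the cell cycle repressor E2f8 (r = 0.925) and Lgals7, a galectin of stratified epithelia (r = 0.921). Among members Serpinb2 followed with r = 0.834 at rank 112, and Serpinb9 stood at the other end with r = -0.768. These values describe 20 tumors that share slides and scan sessions.

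Serpinb2, plasminogen activator inhibitor type 2, which blocks urokinase, varied most widely. It measured -0.25, 0.13 and 0.39 in HFD Early, 1.35, 0.60 and 0.81 in HFD-LFD Early, -2.46, -1.89, 0.08, 3.23 and -2.15 in LFD Late, -0.37, -2.70, -3.20 and -1.34 in LFD-HFD Late and 0.95, -1.82 and 2.49 in HFD-LFD Late. In HFD Late the lowest value was -2.76, the median -2.42 and the highest 4.90. Early tumors therefore clustered near the reference, while late tumors ran from far below to far above it. The difference was 1.37 ± 0.92 (SE), and every early tumor lay above the late median of -1.86. Its probe was well above background in 12 of 18 late tumors and in all 6 early ones.

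Serpinb3c, 1 of the mouse counterparts of the squamous cell carcinoma antigens that inhibit lysosomal cathepsins, behaved similarly within a lower range. It reached -4.11, -2.22 and -2.49 in HFD Early and -0.22, -1.54 and -1.51 in HFD-LFD Early. Late values lay between -4.57 and 1.74 with a median of -3.94, and again HFD Late tumor 4 (1.74) and HFD-LFD Late tumor 3 (-0.03) were highest. The difference between early and late tumors was 1.25 ± 0.72 (SE), with 0.13 in the first scan session and 3.32 in the second.

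Serpinb5 ran the other way. Its values were -0.47, -0.27 and 0.38 in HFD Early and 0.19, -0.10 and 0.26 in HFD-LFD Early. In late tumors it was 0.39, 0.61, 0.37, 0.50 and 0.32 in LFD, 1.44, 1.19, 0.69 and 1.12 in LFD-HFD, 1.18, 1.07 and 1.52 in HFD-LFD, and between 0.23 and 3.36 in HFD with a median of 0.51. All 18 late tumors lay above the early median, and the early mean of 0.00 ± 0.33 (SD, n = 6) was below the late mean of 0.90 ± 0.73 (SD, n = 18) by 0.90 log2 units (SE 0.30). The groups overlapped only between 0.23 and 0.38.

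**Figure D1:**
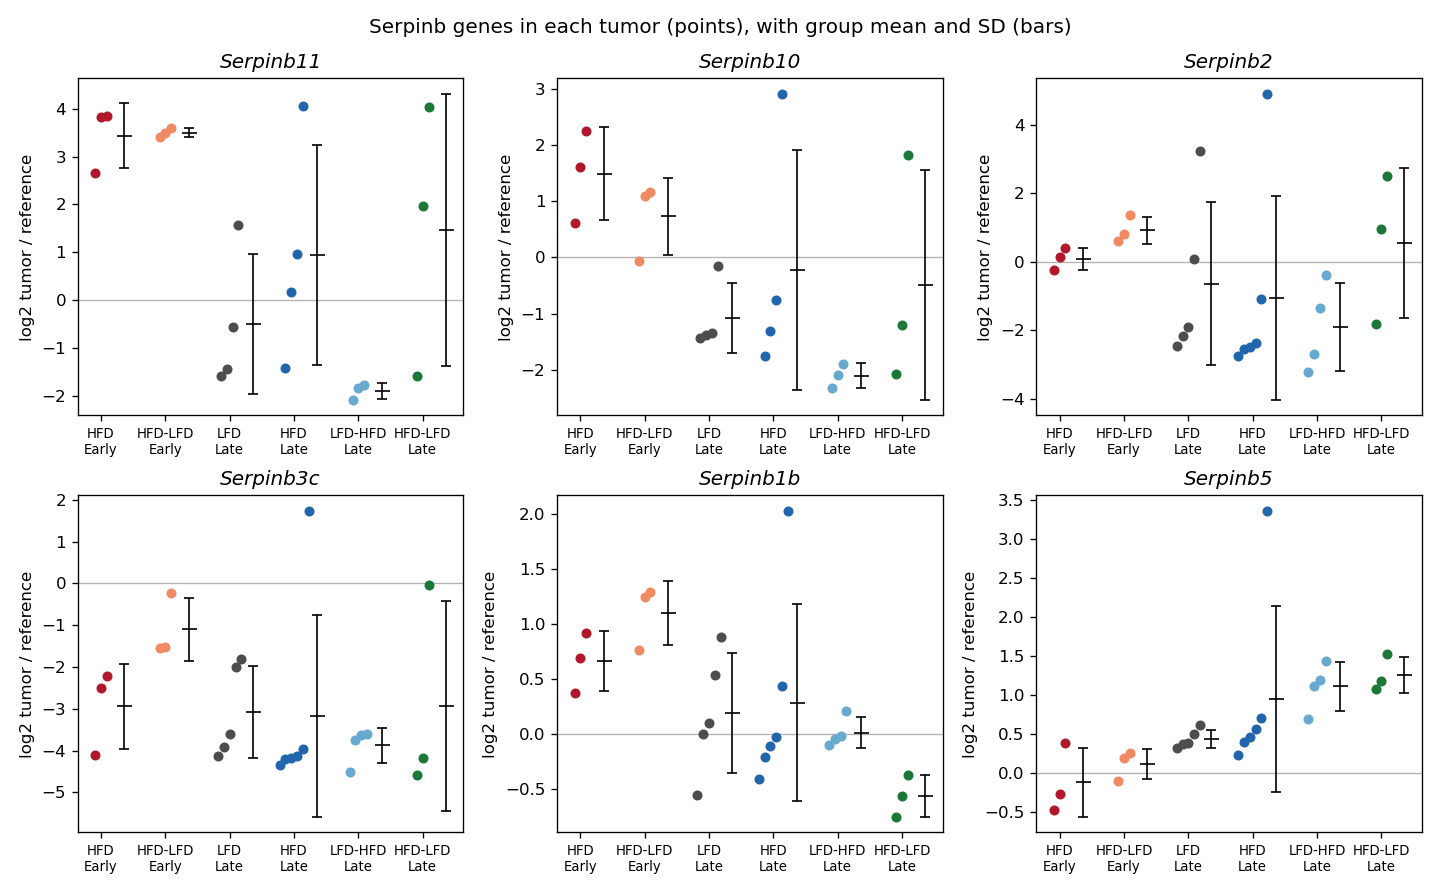
Log2 ratio of tumor over reference for 6 Serpinb genes, with 1 point per tumor in the 6 groups and bars for the group mean and SD. Serpinb11 lies between 2.65 and 3.84 in all early tumors and below 2 in 12 of 14 late tumors, while HFD Late tumor 4 is the highest point for Serpinb2, Serpinb3c and Serpinb5.

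On chromosome 13, Serpinb1b, a close copy of the neutrophil elastase inhibitor Serpinb1a, was 0.92, 0.37 and 0.69 in HFD Early and 1.24, 0.76 and 1.29 in HFD-LFD Early. Late values reached from -0.76 to 2.03 with a median of -0.04, and HFD Late tumor 6 alone exceeded all early tumors. The early mean of 0.88 ± 0.35 (SD, n = 6) exceeded the late mean of 0.05 ± 0.64 (SD, n = 18) by 0.83 ± 0.27 (SE). Serpinb1a itself lay far below the reference in all tumors. Its early mean was -2.90 ± 0.75 (SD, n = 6) and its late mean -3.21 ± 1.02 (SD, n = 14).

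Serpinb9, the inhibitor that shields cells from granzyme B, was at 0.58, 0.70 and 0.97 in HFD Early and at 1.11, 1.25 and 1.22 in HFD-LFD Early. Late tumors had a median of 1.56 and spanned 0.39 to 2.35, so that every early tumor lay below the late median, with a difference of -0.52 ± 0.23 (SE). Serpinb6b followed the same order, with an early mean of -0.66 ± 0.44 (SD, n = 6) and a late mean of 0.11 ± 0.87 (SD, n = 15). Serpinb6b and Serpinb9 also tracked each other over 21 tumors (Pearson r = 0.896), as did Serpinb6a and Serpinb6c (r = 0.857, n = 24), whose probes share 26 bases. Markers of cytotoxic lymphocytes, the main source of granzymes, had list levels of -0.82 to -0.30 in early and -0.39 to 1.64 in late tumors, and 1 of 6 measured markers, Nkg7, passed (-0.91 ± 0.17 SE). The part of these cells in the Serpinb9 and Serpinb6b values was not tested.

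Serpinb6a (-0.25 ± 0.17 SE), Serpinb6c (-0.29 ± 0.16), Serpinb6d (-0.27 ± 0.45), Serpinb8 (0.07 ± 0.27), Serpinb12 (-0.35 ± 0.56) and Serpinb1a (0.32 ± 0.44) all had overlapping early and late ranges. Without HFD Late tumor 4 the Serpinb6d difference was -0.02 and that of Serpinb12 -0.06, and that of Serpinb1a lay between 0.22 and 0.62 as each tumor was left out. Serpinb6a inhibits cathepsin G, Serpinb8 inhibits the proprotein convertase furin and Serpinb12 inhibits trypsin-like enzymes of differentiated epithelia.

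In all, 4 of 14 members passed an adjusted p (limma, Benjamini-Hochberg) of 0.05 between early and late tumors, Serpinb1b, Serpinb10 and Serpinb11 higher and Serpinb5 lower in early tumors, beside 17.3% of all 20936 genes tested (6.68% higher and 10.6% lower). Serpinb11 in this contrast prompted the choice of the clade, so the call is no test of the members and nothing is read from the count, here or in the other fits by onset. No member had early and late ranges without overlap (0 of 14), beside 0.248% of all genes with early tumors higher and 0.468% with early tumors lower. Every early tumor lay above the late median for 4 members, Serpinb1b, Serpinb2, Serpinb10 and Serpinb11 (13.1% of all genes), and below it for 5, Serpinb5, Serpinb6a, Serpinb6b, Serpinb6c and Serpinb9 (20.8%). The median difference over the 14 members was -0.09, against -0.06 over all genes. With slide as a random block the count was 1 (Serpinb11, with 7.82% of all genes), and with slide as a fixed block it was 0 (0.344%). Leaving out HFD Early tumor 1 or 3 or HFD-LFD Early tumor 1 or 3 gave 1 (Serpinb11, with 11.5% to 13.8% of all genes), and leaving out HFD Early tumor 2 gave 2 (Serpinb1b and Serpinb11, with 9.62%). Early and late tumors shared slide 4 only, where the single late tumor leaves little to compare.

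**Figure D2:**
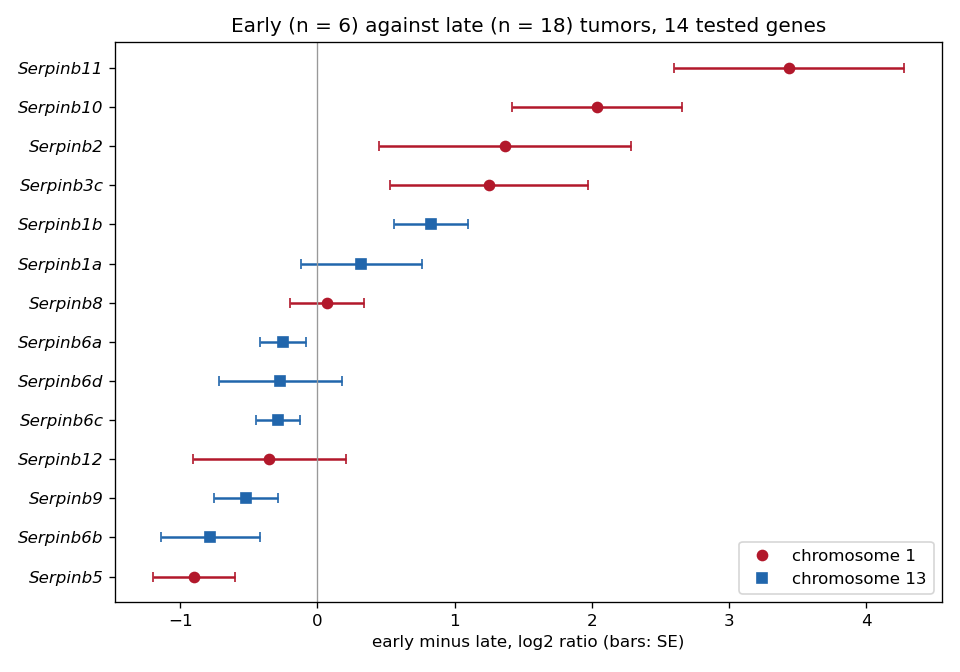
Difference between early and late tumors in log2 ratio for the 14 tested members, with bars for the SE, as circles for chromosome 1 and squares for chromosome 13. Late tumors number 18, or 14 and 15 where dimmed rows left no value, and Serpinb11 (3.44) and Serpinb10 (2.04) lie farthest to the right and Serpinb5 (-0.90) farthest to the left.

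The same contrast within single diets, which leaves 3 early tumors each, is a description too, with 0 of 14 members past the adjusted threshold in limma. Within HFD, where 12.8% of all genes passed (2 members and 29.7% of genes at an unadjusted p under 0.05), Serpinb11 differed by 2.49 ± 1.18 (SE), Serpinb10 by 1.72 ± 0.95 and Serpinb5 by -1.07 ± 0.45. Within HFD-LFD, where 0.798% passed (3 members and 15.4% of genes unadjusted), Serpinb1b differed by 1.67 ± 0.44, Serpinb11 by 2.03 ± 1.26 and Serpinb5 by -1.14 ± 0.52. Without HFD Late tumor 4 the HFD count became 3 (Serpinb5, Serpinb10 and Serpinb11, with 10.7% of all genes) and the HFD-LFD count 1 (Serpinb5, with 1.23%). Without HFD Late tumor 6 they became 2 (Serpinb1b and Serpinb6c, with 17.3%) and 1 (Serpinb1b, with 1.28%). For the difference in onset change between the diets, limma called 0 of 14 members and 0 of 20936 genes (1 member and 8.01% of genes at an unadjusted p under 0.05), the smallest adjusted p being 0.602 for Serpinb1b in limma.

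The rule did not use the diets, which were compared next. Between HFD and LFD tumors of any onset, 0 of 14 members and 0 of 20936 genes passed by limma, and 1 member, Serpinb11, had an unadjusted p under 0.05, as did 4.48% of all genes. Serpinb11 was higher in HFD by 2.52 ± 1.08 (SE), with an adjusted p of 0.96, and early tumors occur in the HFD arm only.

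Among late tumors, no member passed in any diet comparison. Between HFD and LFD, the smallest adjusted p in limma was 0.45, for Serpinb6c, which stood at 0.49 ± 0.18 (SE) above LFD, and 0 of 20936 genes passed (1 member and 8.43% of genes unadjusted). Between LFD-HFD and LFD, where 1.77% of all genes passed (1 member and 18.8% of genes unadjusted), the smallest was 0.252, again for Serpinb6c (0.42 ± 0.20). Between HFD-LFD and LFD, where 2.38% passed, 4 members had an unadjusted p under 0.05, against 17.3% of all genes. They were Serpinb6c (0.66 ± 0.21, adjusted p = 0.101 in limma), Serpinb1a (1.75 ± 0.59, adjusted p = 0.127), Serpinb8 (0.87 ± 0.35, adjusted p = 0.207) and Serpinb6a (0.58 ± 0.25, adjusted p = 0.239). The Serpinb6c values behind these were -1.1, -0.59, -0.70, -0.69 and -1.14 in LFD, -0.46, -0.23, -0.39 and -0.61 in LFD-HFD and -0.02, -0.32 and -0.21 in HFD-LFD. All 3 HFD-LFD Late tumors thus lay above all 5 LFD Late tumors for Serpinb6c, as they did for 5.46% of the genes with a value in all of them.

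The F test for any diet difference among late tumors called 0 of 14 members (smallest adjusted p 0.177 in limma, Serpinb6c), beside 1.92% of all genes (2 members and 20.1% of genes unadjusted). The 3 comparisons with LFD share the same LFD tumors. These limma fits share the spread of all 6 groups, and without HFD Late tumor 4 they called Serpinb1a, Serpinb5 and Serpinb6c for HFD-LFD against LFD (smallest adjusted p = 0.0174, with 3.75% of all genes called), Serpinb5 for LFD-HFD against LFD (adjusted p = 0.0401, with 2.81%) and Serpinb5 and Serpinb8 in the F test (smallest adjusted p = 0.0143, with 4.18%). Serpinb5 was at 0.44 ± 0.12 (SD, n = 5) in LFD, 1.11 ± 0.31 (SD, n = 4) in LFD-HFD and 1.26 ± 0.23 (SD, n = 3) in HFD-LFD, without overlap between LFD and either of the switched diets. Among genes with a value in every tumor of both groups, 4.91% lay without overlap above LFD in LFD-HFD (1 of 9 members, Serpinb5) and 5.46% in HFD-LFD (3 of 9 members, Serpinb5, Serpinb6a and Serpinb6c). Of the LFD Late tumors 4 lay on slide 1, and none of the other late diets was on it.

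HFD Late tumor 4 carried the highest value of any tumor for 10 of the 14 tested members. The share of all genes with their highest value in HFD Late tumor 4 was not computed, so this count is not read as a trait of the clade. Serpinb6d was 4.35 in it and at most 0.71 in any other tumor. Serpinb12 was 2.37 against at most -1.06, and Serpinb5 3.36 against at most 1.52. Serpinb2 was 4.90 against at most 3.23. Among members that were not tested, Serpinb6e was 4.13 in it against at most 0.51 elsewhere, Serpinb7 1.47 against at most -0.87, and Serpinb3a 1.17 against at most -1.87. Serpinb7, called megsin, and Serpinb12 are epithelial serpins of the upper skin layers.

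**Figure D3:**
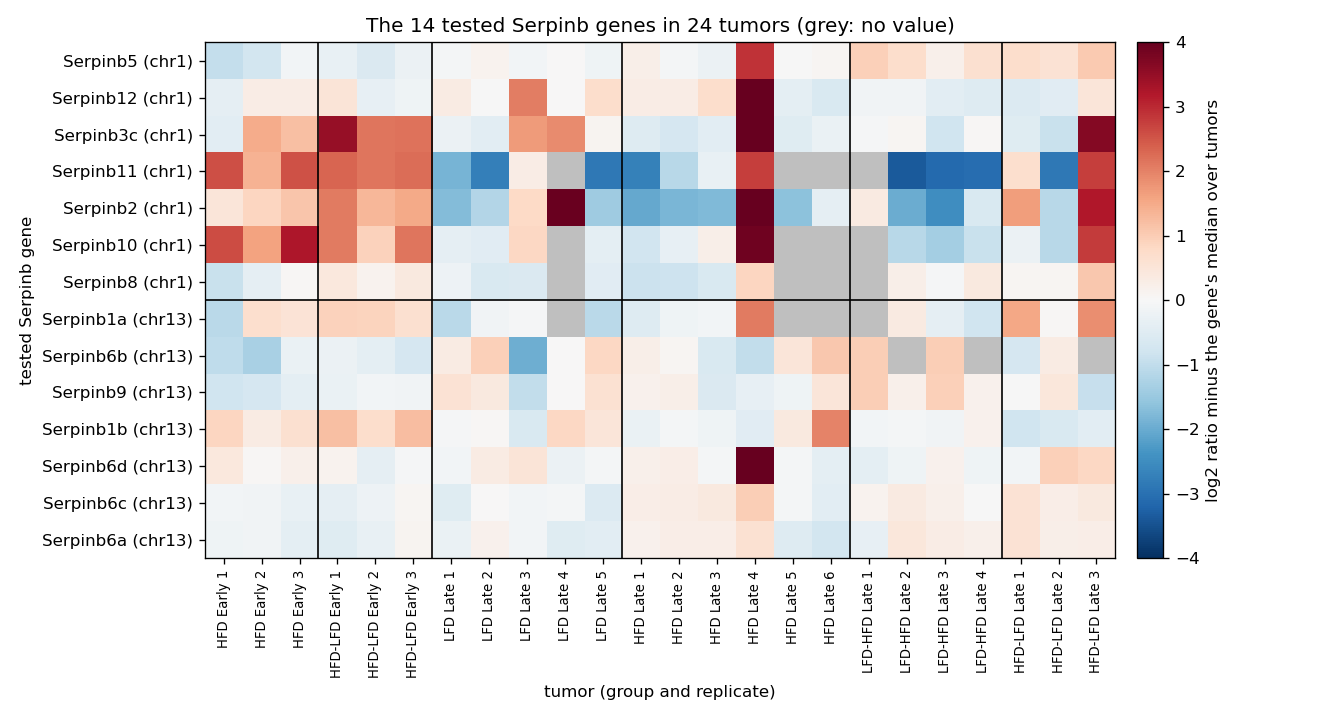
Log2 ratio minus the gene's median over tumors for the 14 tested members (rows, chromosome 1 above chromosome 13) in the 24 tumors (columns, by group and replicate), on a colour scale that ends at -4 and 4, with values beyond shown at its ends and grey for no value. HFD Late tumor 4 stands out across both chromosomes, with 4.35 for Serpinb6d before centring, while Serpinb10 and Serpinb11 are raised in all early tumors.

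The other members below the filter were read from single tumors. Serpinb3b was 0.69, 1.56 and 1.61 in HFD Early and 2.72, 1.76 and 2.17 in HFD-LFD Early, well above background in all 6, and its late values had a median of -0.41 and reached 2.02 in LFD Late tumor 3, 2.60 in HFD-LFD Late tumor 3 and 3.14 in HFD Late tumor 4. It was not well above background in any of the 4 LFD-HFD Late tumors, which puts HFD-LFD Early tumors (mean 9.56 log2 units in the tumor channel, against 6.15) at least 10.4-fold above them. Serpinb13, called headpin, an inhibitor of cathepsins in squamous epithelium, was well above background in 4 of 6 early and 3 of 18 late tumors, with values up to 2.22. Serpinb3d was well above background in 5 of 6 early and 3 of 14 late tumors. Serpinb9b and Serpinb9d were well above background in 0 tumors, and Serpinb1c, Serpinb9c, Serpinb9e, Serpinb9f and Serpinb9g in 3 to 10 each, with log2 ratios between -0.49 and 1.28.

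Members were set against a list of 26 genes of squamous differentiation (25 measured), among them keratins and cornified envelope genes, whose level is the mean log2 ratio after centring each gene on its median. The level ran from -0.20 to 2.43 in early and from -1.24 to 4.75 in late tumors, with HFD Late tumor 4 highest and HFD-LFD Late tumor 3 next at 3.54. Between early and late tumors 2 of 25 genes passed in limma, Sprr2d higher (3.58 ± 1.20 SE) and Sprr3 lower (-0.96 ± 0.26), and the median difference was 1.42. Over 24 tumors 10 of 14 members correlated with the list by Pearson's r and 7 by Spearman's rho at an adjusted permutation p under 0.05 (two-sided, 100000 permutations, adjusted over 14 members). Of the 24 tumors, 20 had values for Serpinb1a, Serpinb8, Serpinb10 and Serpinb11, and 21 for Serpinb6b. In all, 65 relations were computed over the tumor sets. The share of all genes that correlate with the list was not computed for any set. The counts of members are therefore not read as a trait of the clade.

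The median list level was 2.01 in early and -0.82 in late tumors, and the clade was chosen on Serpinb11 by onset. Relations that mix early and late tumors are therefore a description of the members, and their p-values support nothing. The permutations also treat tumors that share slides and diet groups as exchangeable. Serpinb3c had r = 0.91 and rho = 0.74 over 24 tumors (adjusted permutation p = 7e-05 and 0.00021). Serpinb2 had r = 0.88 and rho = 0.895, Serpinb10 r = 0.864 and rho = 0.853 and Serpinb11 r = 0.835 and rho = 0.842, for which each unadjusted permutation p was 2e-05, the smallest that 100000 permutations can give. HFD Early tumor 1 joined a high Serpinb11 (3.84) with a squamous level of only -0.20, the lowest of the early tumors. Serpinb1a followed with r = 0.804 and rho = 0.725 (adjusted permutation p = 0.000336 and 0.00129). Without the 2 tumors farthest from the median of the list, HFD Late tumor 4 and HFD-LFD Late tumor 3, r stayed at 0.839 for Serpinb3c, 0.799 for Serpinb2, 0.789 for Serpinb10, 0.823 for Serpinb11 and 0.664 for Serpinb1a. The chromosome 13 members Serpinb9 (r = -0.619, rho = -0.586, adjusted permutation p = 0.00364 and 0.00724) and Serpinb6b (r = -0.627, rho = -0.618, adjusted permutation p = 0.00612 and 0.007) ran against the list.

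Relations of 3 further members rested on the outermost tumors. Serpinb12 fell from r = 0.591 to 0.301, Serpinb6d from 0.557 to 0.0334 and Serpinb8 from 0.597 to 0.326 without them, and none passed by rho over 24 tumors. Serpinb5 had r = 0.298 and rho = -0.148 (adjusted permutation p = 0.23 and 0.584), and Serpinb1b, Serpinb6a and Serpinb6c had r between 0.0344 and 0.167.

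Within the 18 late tumors alone, of which 14 had values for Serpinb10 and Serpinb11, 11 members passed by r and 3 by rho. Serpinb2 (r = 0.89, rho = 0.87, adjusted permutation p = 0.00056 and 0.00028), Serpinb10 (r = 0.938, rho = 0.723, adjusted permutation p = 0.00084 and 0.0296) and Serpinb11 (r = 0.893, rho = 0.71, adjusted permutation p = 0.00084 and 0.0296) passed by both, and kept r of 0.752, 0.704 and 0.703 without the 2 farthest tumors. In the first scan session (11 tumors) r was 0.947 for Serpinb2, 0.937 for Serpinb3c and 0.744 for Serpinb11, and in the second (6 tumors) 0.94, 0.91 and 0.976. In the third session (7 tumors) 0 of 9 members passed by an exact permutation test adjusted over them, with r = 0.795 for Serpinb2 and 0.913 for Serpinb3c.

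**Figure D4:**
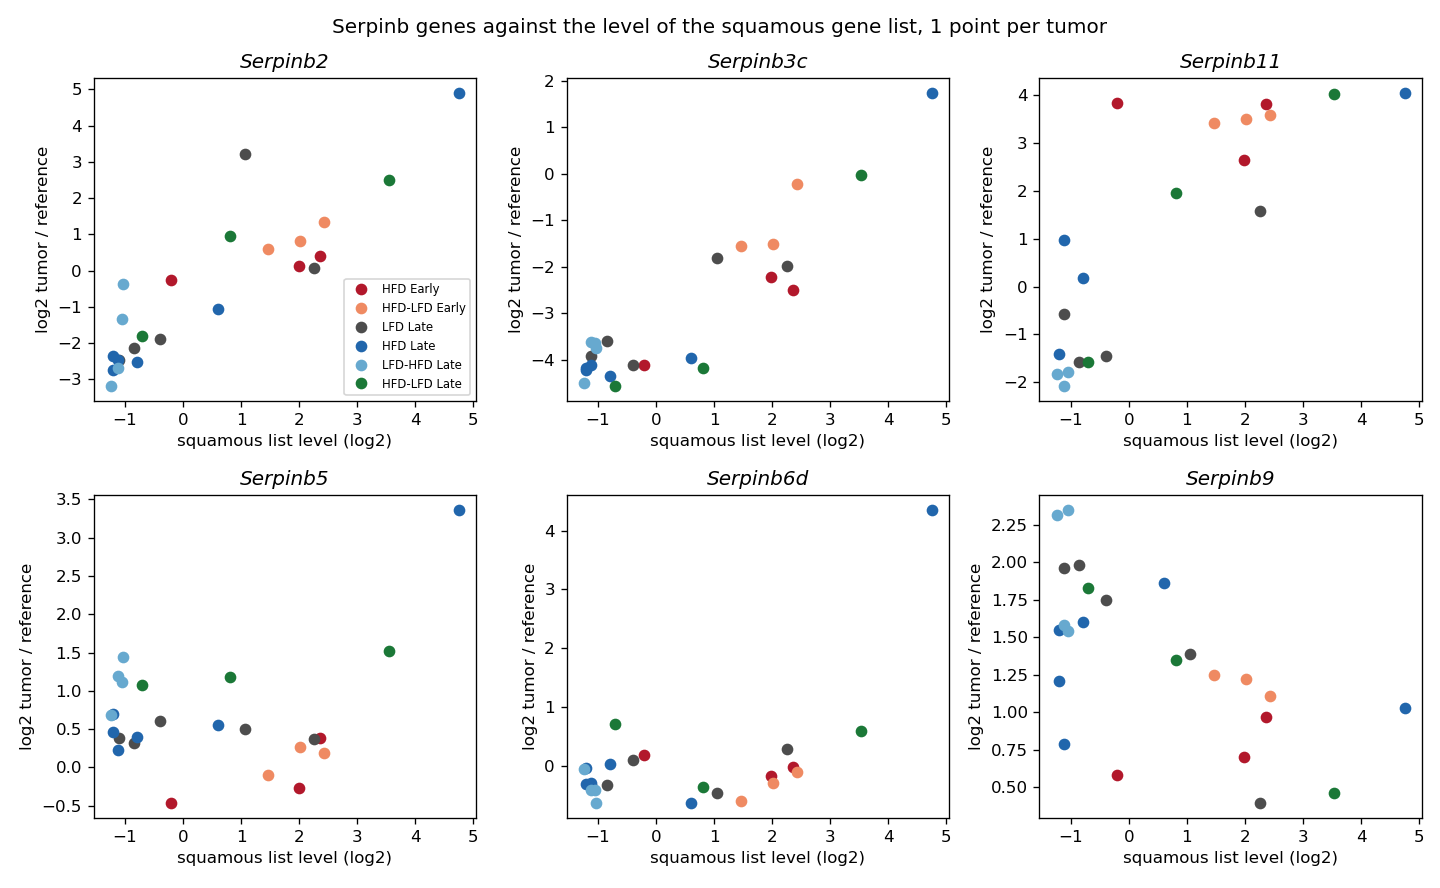
Log2 ratio of 6 Serpinb genes against the level of the squamous list (log2), 1 point per tumor coloured by group. Serpinb2 and Serpinb3c rise along the axis, Serpinb9 falls, and Serpinb6d departs from its other values only in HFD Late tumor 4 at a list level of 4.75.

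Luminal epithelial genes moved in the opposite direction to the squamous list. Their level was -2.84 to -0.21 in early and -3.82 to 1.34 in late tumors, lowest in HFD Late tumor 4, and 6 of 9 passed as lower in early tumors (limma), led by Prlr (-3.94 ± 0.87 SE), the prolactin receptor, Foxa1 (-3.26 ± 1.1) and Krt19 (-2.78 ± 0.96). Of 8 basal or myoepithelial genes, 1 passed, Myh11 (-2.88 ± 0.69), the smooth muscle myosin of myoepithelial cells, and the list median was -1.01. Its basal keratins and Trp63 had the opposite sign to the contractile genes, at 1.18 ± 0.65 for Krt14, 0.45 ± 0.45 for Krt5 and 0.44 ± 0.24 for Trp63, none of which passed. Of 10 neutrophil genes 0 passed in limma (3 at an unadjusted p under 0.05), and the list median was -0.14. S100a8 stood at 2.23 ± 1.22 and S100a9 at 2.50 ± 1.19, which keratinocytes also make. The other neutrophil genes had the opposite sign except Cxcr2 (0.02 ± 0.38), with Camp (-1.12 ± 0.47) and Mpo (-0.91 ± 0.34) lowest. Of 8 macrophage genes 2 passed, Msr1 (0.70 ± 0.22) and Lyz2 (0.68 ± 0.22), and the list median was 0.12. Marco (-0.48 ± 0.25), Csf1r (-0.41 ± 0.23) and Cd68 (-0.11 ± 0.18) had the opposite sign, and none of these passed. Of 6 mast cell genes 0 passed in limma (2 at an unadjusted p under 0.05). Neutrophil genes had their highest level, 3.41, in HFD-LFD Late tumor 3. The part of any of these cell types in the values of the members was not tested.

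A list of 26 genes held proteases that clade B serpins are known to bind or that act beside them, and the urokinase receptor. Of these, 7 passed between early and late tumors in limma, 1 higher and 6 lower, where 17.3% of all genes passed. Klk8, a kallikrein of the upper skin layers, was higher in early tumors by 2.60 ± 0.90 (SE). Gzma, granzyme A of cytotoxic lymphocytes, differed by -1.79 ± 0.52 and Casp4, an inflammatory caspase, by -1.27 ± 0.35. Casp4 also passed among late tumors, at 1.41 ± 0.36 for HFD-LFD against LFD (adjusted p = 0.0406 in limma) and 1.40 ± 0.33 for LFD-HFD against LFD (adjusted p = 0.0374). Of 13 measured genes of other serpin clades and secreted inhibitors, 2 passed by onset, both higher in early tumors, Serpine2 (1.25 ± 0.33), a secreted inhibitor of thrombin and urokinase, and Serpini1 (0.87 ± 0.30).

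Members of the chromosome 1 cluster varied together more than those of chromosome 13. The median Pearson r was 0.604 over 21 pairs of chromosome 1 members, -0.123 over 21 pairs of chromosome 13 members and 0.15 over 49 pairs between them. Without HFD Late tumor 4 these medians were 0.272, -0.062 and 0.0114. The highest pair was Serpinb10 with Serpinb11 (r = 0.925 over 20 tumors, 0.932 without that tumor), whereas Serpinb12 with Serpinb6d dropped from 0.876 to 0.302. These correlations describe tumors that share slides, and member pairs are not independent of each other.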

How the data were processed

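Tumor RNA (Cy5) and a pooled reference RNA (Cy3) were hybridised to Agilent 2-colour mouse arrays (mm9). The deposited files hold the authors' scanner output as intensity per spot, with a log10 ratio per spot that the scanner software derived. The headers name Agilent Feature Extraction 11.0.1.1 and the labels 8.5.1.1. The files give intensities without counts, so the number of arrays limits the precision. Mean signals were background-corrected in limma 3.58.1 (R 4.3.3) with normexp (offset 50, fitted on unflagged spots) and normalized by loess. Spots flagged as outliers or with uneven background were set missing. Spots flagged only for the level of the local background kept their values. That choice was made after seeing that this flag removed bright spots of members, Serpinb11 and Serpinb5 among them, and with all flagged spots left out 3 rather than 4 members were called between early and late tumors, Serpinb5 no longer among them. Bands of 10 rows whose median log2 ratio lay over 0.5 below the array median were set missing, without imputation.

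A probe was kept where both dyes exceeded 10 after background subtraction on 80% of arrays. The brightest probe stood for a gene, and its symbol was matched to RefSeq by accession (27234 probes), symbol (3576) or older symbol (565), otherwise kept (8054). Early against late and HFD against LFD were 2-group limma fits, and the other contrasts came from 1 fit of 6 groups. P-values were adjusted over 20936 genes by Benjamini-Hochberg. Fits were tested on simulated data. Members and gene lists were chosen with earlier results of these data known. Every member is named. Values are given for Serpinb2, Serpinb5, Serpinb11 and the members with the largest difference by onset. Genes of the lists are named only as the 3 largest differences among those called. Exceptions are Krt14, Krt5, Trp63, S100a8, S100a9, Camp, Mpo, Cxcr2, Marco, Csf1r and Cd68, which were named after their values were seen. The 5 genes most like Serpinb11 were ranked over its 20 measured tumors, since it has more missing values than the rule foresaw. Slides and scan sessions were read from the file headers. Alternatives covered background, normalization, filters, flags, imputation, blocks, weights and leaving out arrays. Leaving out all flags and the within-session fits were added after seeing the data.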

Additional observations from a re-analysis of the deposited data

Results flagged for a closer look

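Each group of 4 to 10 tumors was checked by Dixon's ratio, where chance alone flags about 1 in 20. The checks share tumors and are not independent, so no excess over that rate is read. Of 51 checks of the 14 tested members, 12 had a tumor set apart from the rest of its group. Of these, 7 were HFD Late tumor 4, the highest of its group for Serpinb2 (4.90, next -1.07), Serpinb6d (4.35, next 0.03), Serpinb5 (3.36, next 0.70), Serpinb12 (2.37, next -2.40), Serpinb3c (1.74, next -3.95), Serpinb8 (1.52, next 0.07) and Serpinb1a (-1.25, next -3.43). HFD Late tumor 6 was the highest of its group for Serpinb1b (2.03, next 0.43). LFD Late tumor 3 was the highest of 4 for Serpinb10 (-0.15, next -1.35). LFD-HFD Late tumor 3 was the lowest of 4 for Serpinb3c (-4.50, next -3.75). Over the 6 early tumors, HFD Early tumor 1 was the lowest for Serpinb1a (-4.40, next -2.78) and HFD Early tumor 2 the lowest for Serpinb11 (2.65, next 3.42).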

How the results depend on the processing

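No paired analysis was possible because the labels number no replicates. Numbers of members called at an adjusted p under 0.05 stayed at 0 under every alternative for HFD against LFD and for the difference of the onset change between diets. For early against late (4 called) the count was 2 with dimmed rows kept (11.5% of all genes called), 1 with slide as a random block (7.82%), 0 with slide as a fixed block (0.344%), 8 with array weights (31.6%, against 17.3% without) and 0 within the first scan session (7.31%), and 1 to 6 when leaving out each array in turn. Array weights raised calls over all genes too, and gave 1 for late HFD against LFD (6.73% of all genes), 1 for late LFD-HFD against LFD (7.82%), 2 for late HFD-LFD against LFD (4.61%), 5 within HFD (39.8%), 4 within HFD-LFD (10.9%) and 4 for any diet difference among late tumors (26.8%), each 0 without weights. Leaving out the slides with dimmed rows gave 2 within HFD (16.7% of all genes) and 1 within HFD-LFD (2.14%). Within HFD-LFD, normexp fitted on all spots and scan session as a fixed block each gave 1 (2.14% and 1.64%). Leaving out each array in turn gave 0 to 1 for late LFD-HFD against LFD, 0 to 3 for late HFD-LFD against LFD, 0 to 3 within HFD, 0 to 1 within HFD-LFD, 0 to 2 for any diet difference and 0 to 0 for the other contrasts. The squamous list correlated with 17 of 27 members without the signal filter, which adds members, and with 10 or more under the others. The share of all genes was not computed for these counts. Serpinb6c in late HFD against LFD turned from 0.49 to -0.15 with slide as a fixed block. The cause of these changes was not tested. The early minus late difference ranged from 3.22 to 5.35 for Serpinb11, 1.85 to 3.43 for Serpinb10, 0.75 to 1.59 for Serpinb1b and -0.92 to -0.57 for Serpinb5 over the alternatives other than left-out arrays. The contrast of group means was run for early against late and HFD against LFD only.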
